A study of Mus musculus with 9 samples.

Results

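Voltage-gated sodium channels were represented by 9 genes, comprising 6 alpha subunits (Scn1a, Scn2a, Scn3a, Scn7a, Scn8a and Scn9a) and 3 beta subunits (Scn2b, Scn3b and Scn4b). They were chosen by gene symbol from the 19938 genes measured on Mouse Gene 1.0 ST arrays of brain RNA, and each gene was read from its probe set with the highest mean over the 9 arrays. The symbols covered 23 probe sets, of which 14 belonged to Scn2a and 2 to Scn9a. Values are deposited log2 signals, so a difference of 1 is a 2-fold difference in signal, and levels of different genes are not compared because each probe set binds its target differently.

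The HPYD group (3 arrays) held APP/PS1 transgenic mice given HPYD, a peptide designed to keep amyloid from stacking into beta sheets, as a 33 mg/mL solution in saline through the nose at 5 µL a day for 30 days. The Model group (3 arrays) held APP/PS1 transgenic mice given plain saline the same way over the 30 days. The Control group (3 arrays) held wild-type C57/6J mice given saline, described by the study as matched in age and background. APP/PS1 mice bear an amyloid precursor protein transgene and a presenilin transgene, and were bought at 8 months of age. The sources used here name neither the transgenic line and its promoter nor the part of the brain that was taken, and do not say that each array was a separate mouse. P-values therefore measure only the spread between these arrays, which may be technical.

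The array labelled HPYD 3 went against its label. App was 12.53 in it, against 12.98 and 13.01 in HPYD 1 and 2, 12.95 to 13.02 in Model arrays and 12.56 to 12.62 in Control arrays. Xist, the RNA of the inactive X chromosome, was 5.22 there and 11.18 to 11.78 in the other HPYD arrays and all Model arrays, against 5.20 to 5.69 in Control arrays, while the Y-linked Kdm5d ran the other way. Sex and genotype therefore cannot be told apart between Model and Control arrays. The median of 10 neuronal genes was −0.07 to 0.08 from the Control mean in every array, but single genes moved both ways, with Nefh at 10.34 and 10.40 in the array labelled HPYD 3 and Model 2, against 9.32 to 9.63 in Control arrays, and Syt1 at 12.40 and 12.37 in that pair, against 12.93 to 12.98 in Control arrays. Genes of particular regions and of non-neural tissue also differed between arrays, and some of their values stand beside channels below. The median of 6 thalamic genes was −0.61 to 0.86 from the Control mean over the 9 arrays. For 8 genes of the hypothalamus and pituitary this median was −1.29 to 0.67. Both medians were lowest in Control 3 and highest in HPYD 1, and the part of these genes in the channel values was not tested. Skeletal muscle genes (16 of 16 measured) averaged 6.23 to 7.41 in HPYD arrays, 6.28 to 10.27 in Model arrays and 6.17 to 6.32 in Control arrays. Granulocyte genes (10 of 10) averaged 5.99 to 9.50 in HPYD arrays, 5.84 to 10.43 in Model arrays and 6.75 to 7.08 in Control arrays.

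The alpha subunit forms the pore of the channel, senses membrane voltage and carries the fast inward sodium current that starts an action potential. Beta subunits are single-pass membrane proteins with an immunoglobulin-like domain that change how the pore gates, help place it in the membrane and take part in cell adhesion. In the forebrain, Nav1.1 (Scn1a) is prominent in fast-spiking interneurons, Nav1.2 (Scn2a) and Nav1.6 (Scn8a) at the axon initial segment of excitatory neurons, and Nav1.3 (Scn3a) before birth. Nav1.7 (Scn9a) is best known from pain-sensing neurons of the peripheral ganglia, and Nax (Scn7a) is an atypical family member that responds to extracellular sodium concentration. In the RefSeq annotation, Scn3a, Scn2a, Scn1a, Scn9a and Scn7a follow each other on chromosome 2, Scn3b, Scn2b and Scn4b on chromosome 9, and Scn8a lies on chromosome 15.

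The promoters of the 2 alpha subunits with the largest HPYD against Model difference, Scn9a and its chromosome 2 neighbour Scn7a, and of Scn4b, the beta subunit with the widest range over the arrays, are shown because the results turn on these genes. Each run holds 250 bases before and 50 after the annotated start in GRCm38.p6, from RefSeq, read 5′ to 3′ along the gene's strand. A promoter entry was matched for 7 of the 9 members, and Scn3a and Scn3b had none. Scn9a lies at chr2:66634913-66635212 on the minus strand, Scn7a at chr2:66784861-66785160 on the minus strand and Scn4b at chr9:45138374-45138673 on the plus strand.
Scn9a: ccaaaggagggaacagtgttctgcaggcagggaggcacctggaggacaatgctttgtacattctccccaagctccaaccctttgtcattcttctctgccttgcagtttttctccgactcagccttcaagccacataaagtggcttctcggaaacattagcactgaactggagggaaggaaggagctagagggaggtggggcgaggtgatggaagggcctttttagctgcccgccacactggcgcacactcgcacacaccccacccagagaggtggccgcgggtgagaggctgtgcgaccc
Scn7a: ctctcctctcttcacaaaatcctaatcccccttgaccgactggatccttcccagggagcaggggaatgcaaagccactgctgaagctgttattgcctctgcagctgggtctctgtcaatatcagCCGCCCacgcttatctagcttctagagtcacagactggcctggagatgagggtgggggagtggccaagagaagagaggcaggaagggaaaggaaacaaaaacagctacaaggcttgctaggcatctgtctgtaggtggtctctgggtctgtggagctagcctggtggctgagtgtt
Scn4b: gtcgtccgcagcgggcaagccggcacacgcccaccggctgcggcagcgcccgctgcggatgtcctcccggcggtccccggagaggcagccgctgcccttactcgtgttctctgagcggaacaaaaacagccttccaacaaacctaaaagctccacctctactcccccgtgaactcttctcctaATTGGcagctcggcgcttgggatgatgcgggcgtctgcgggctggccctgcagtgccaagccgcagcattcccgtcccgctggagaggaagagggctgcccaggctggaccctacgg
Capitals mark the matches to the motifs searched. These were the TATA box TATAAA, the GC box GGGCGG, the CCAAT box CCAAT, and AGCACC and GGACAG from the left and right parts of RE1, the site of the neuronal repressor REST, each on both strands and without overlap between them in these 3 windows. The Scn7a window held 1 GC box on the opposite strand (CCGCCC), a motif found in 35.7% of 32851 RefSeq promoters. The Scn4b window held 1 CCAAT box on the opposite strand (ATTGG), found in 37.4% of them, and the Scn9a window held none of these letters. The other shares were 13.6% for TATAAA, 16.2% for AGCACC and 22.2% for GGACAG. GC content was 57.3% with 9 CpG dinucleotides for Scn9a, 54.0% with 3 for Scn7a and 66.3% with 26 for Scn4b, beside medians of 52.7% and 7 over all promoters.

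Scn9a was the sodium channel gene whose Model arrays stood apart from both other groups. Its signal was 6.85, 7.04 and 8.01 in HPYD 1, HPYD 2 and the array labelled HPYD 3, and 6.65, 6.59 and 6.19 in Model 1 to 3, against 7.30, 7.15 and 7.15 in Control 1 to 3. All HPYD arrays lay above all Model arrays, as for 2.24% of all genes, and all Model arrays lay below all Control arrays, as for 4.68% of all genes, whereas HPYD and Control arrays overlapped. The group means were 7.30 ± 0.62 in HPYD, 6.48 ± 0.25 in Model and 7.20 ± 0.08 in Control arrays (SD, n = 3 each), so the order was HPYD, Control, Model, and the first pair did not differ beyond their spread.
The log2 difference was 0.82 for HPYD against Model (standard error 0.28, 95% confidence interval 0.19 to 1.46), with an adjusted p of 1 from limma. The Scn9a difference was −0.72 for Model against Control (standard error 0.28, interval −1.36 to −0.09), with an adjusted p of 0.859 from limma. The exact two-sided permutation p was 0.1 in both cases, the smallest that 3 arrays against 3 allow. HPYD against Control differed by 0.10 (interval −0.54 to 0.74; adjusted p = 0.938 from limma).
The HPYD and Control comparisons share the Model arrays, and the study itself picked this gene on these arrays, so its pattern on them is not independent evidence. The study also measured Scn9a by quantitative PCR, among genes for which it reported that PCR and arrays matched well. Those PCR values were not examined here.

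A second probe set of Scn9a gave 5.95, 6.05 and 6.85 in HPYD arrays, 5.89, 5.41 and 5.25 in Model arrays and 5.95, 5.79 and 6.15 in Control arrays. It repeated the gap between HPYD and Model arrays, at 0.77 on the log2 scale with no overlap, as for 2.17% of probe sets with a single gene, but Model and Control arrays overlapped, at −0.45. Much of the size of the Scn9a difference lay in 1 array. Without the array labelled HPYD 3, HPYD against Model was 0.47 (adjusted p = 1 from limma, passed by 0.0% of genes) and the arrays still did not overlap, as for 4.3% of genes, whereas HPYD against Control turned to −0.26, with both remaining HPYD arrays below all Control arrays, as for 8.09% of genes (adjusted p = 1 from limma, passed by 0.0401% of genes). Model against Control does not use that array, so its −0.72 could not change and only its spread was estimated anew (adjusted p = 0.448 from limma, passed by 0.0351% of genes).

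**Figure D1:**
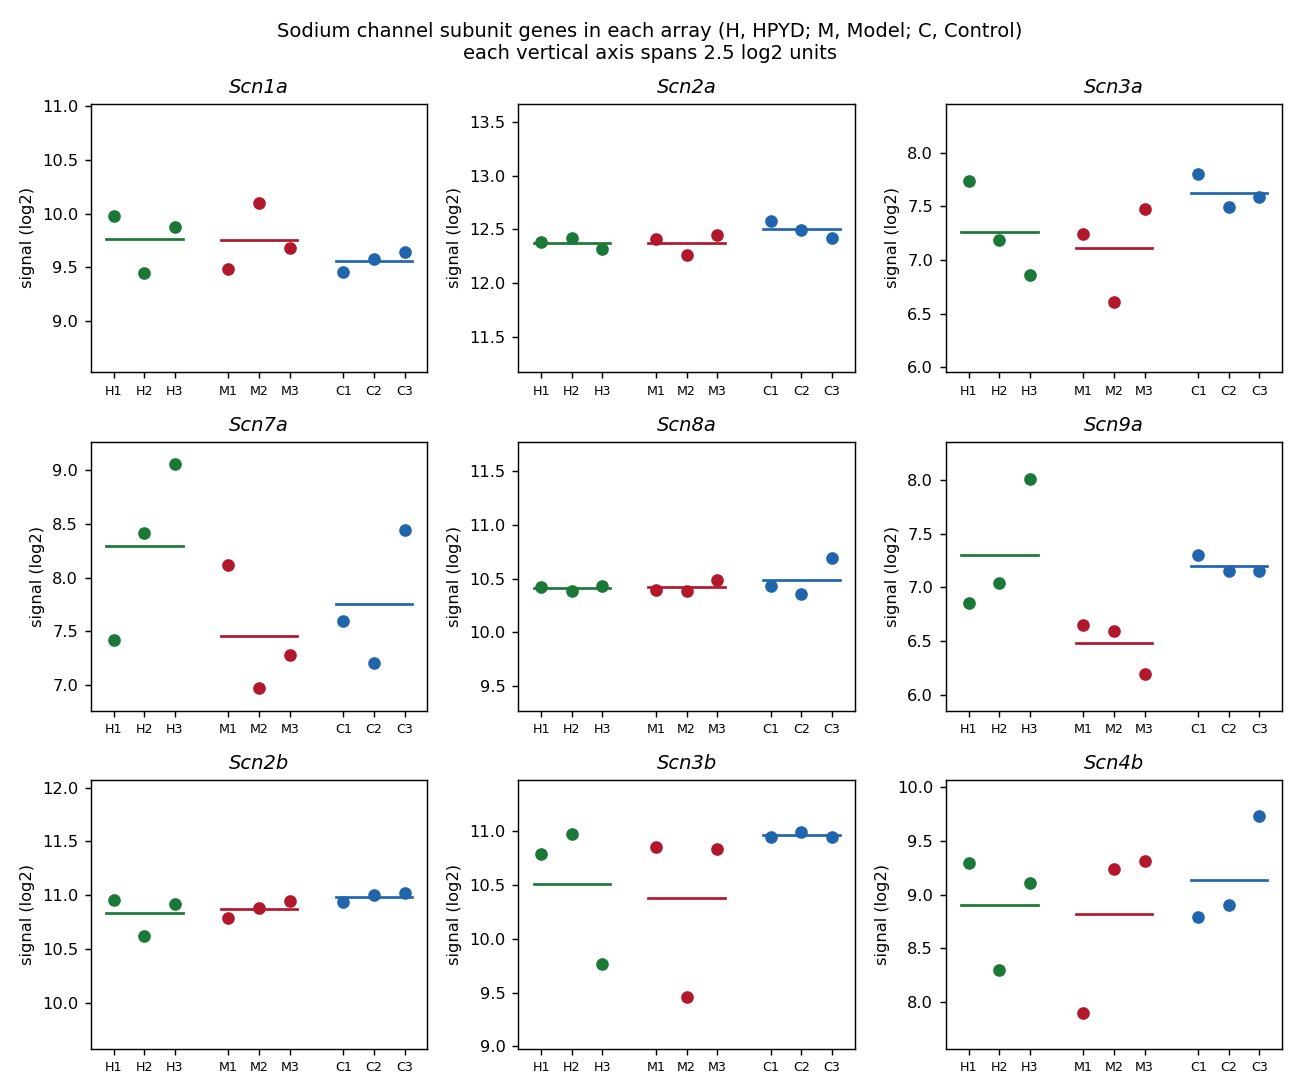
Signal (log2, vertical axis) of each of the 9 sodium channel genes in each array (horizontal axis, H1 to H3 for HPYD, M1 to M3 for Model, C1 to C3 for Control). Each point is an array and each line a group mean. The 3 Model arrays of Scn9a, at 6.19 to 6.65, lie below all others, Scn3b drops to 9.76 in H3 and 9.46 in M2, and Scn2a and Scn8a stay nearly level.

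Scn7a had the largest spread of the family, with a standard deviation of 0.70 over the 9 arrays, beside a median of 0.12 over all genes. It read 7.42, 8.42 and 9.06 in HPYD arrays, 8.12, 6.97 and 7.28 in Model arrays and 7.60, 7.21 and 8.44 in Control arrays. The highest array was the one labelled HPYD 3, followed by Control 3, HPYD 2 and Model 1, so that high arrays occurred in every group and all groups overlapped. The differences were 0.84 (standard error 0.49, interval −0.28 to 1.96) for HPYD against Model, 0.55 (−0.57 to 1.67) for HPYD against Control and −0.29 (−1.41 to 0.83) for Model arrays against Control arrays, and the smallest adjusted p was 0.860 from limma.
Without the array labelled HPYD 3, Scn7a differed by 0.46 between HPYD and Model arrays and by 0.17 between HPYD and Control arrays. Model against Control was −0.62 without Model 1 and turned to 0.05 without Control 3.

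The high Scn7a arrays were also high in several genes of sensory neurons. Scn10a and Scn11a, the channels Nav1.8 and Nav1.9 of pain-sensing neurons, were also measured. Scn10a was 5.68, 7.37 and 8.98 in HPYD arrays, 7.02, 5.31 and 5.70 in Model arrays and 5.55, 5.84 and 7.99 in Control arrays. Scn11a was 4.87, 6.05 and 6.57 in HPYD arrays, 5.38, 4.68 and 4.85 in Model arrays and 4.96, 4.78 and 6.33 in Control arrays. Both were high in the arrays where Scn7a was high. A list of 9 sensory ganglion genes, chosen after its values were seen and including these 2 channels, averaged 5.70 to 7.44 in HPYD arrays, 5.65 to 6.40 in Model arrays and 5.70 to 6.84 in Control arrays. Its member Tlx3 followed Scn7a only in part. Tlx3 was 6.69 in Model 2, where Scn7a was lowest, against 6.57 in HPYD 2 and 6.46 in Control 3. Like Scn7a, it was highest in the array labelled HPYD 3. All 9 genes of the list were measured and none was at 0. The lowest value of any probe set was 2.37, so this does not show that a gene was detected, here or in later lists. A second list, of peripheral nerve and sensory neurons (3 of 7 measured, none at 0), averaged 6.22 to 7.47 in HPYD arrays, 5.90 to 6.74 in Model arrays and 6.02 to 6.83 in Control arrays. It followed Scn7a only in part, since Pou4f1 was 5.77 in HPYD 2 and 5.80 in Control 3, where Scn7a was high, against 6.02 in Model 2, where Scn7a was lowest, and Prph was 7.77 in Model 2. The part of both lists in the Scn7a values was not tested.
The genes of the whole table most like Scn7a over the 9 arrays were Fxyd2 (r = 0.98), Ppef1 (0.98) and Ppp1r1c (0.97). Without the 2 arrays farthest from the median of Scn7a, the one labelled HPYD 3 and Control 3, these values were 0.95, 0.96 and 0.95. Pearson's r of Scn7a with Scn10a and with Scn11a was 0.97 each. These are descriptions of 9 points that share their labelled RNA and array. Scn9a followed Scn7a less closely (r = 0.67, and 0.25 over 7 arrays without Model 3 and the array labelled HPYD 3), and in Control 3, where Scn7a, Scn10a and Scn11a were high, it stayed at 7.15.

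Scn3a and Scn3b were lowest in the same 2 arrays, Model 2 and the array labelled HPYD 3, as was Scn2a on its probe set with the highest mean. Scn3a read 7.74, 7.18 and 6.86 in HPYD arrays, 7.24, 6.61 and 7.47 in Model arrays and 7.80, 7.50 and 7.58 in Control arrays. All Model arrays lay below all Control arrays, by a narrow margin in Model 3, and the HPYD arrays spanned both. The difference was −0.52 (standard error 0.27, interval −1.14 to 0.09) for Model against Control, with an adjusted p of 0.859 from limma and an exact two-sided permutation p of 0.1. HPYD against Control was −0.37 (−0.98 to 0.25), and HPYD against Model was 0.15 (−0.46 to 0.77). Without Model 2, Model against Control was −0.27. HPYD against Control was −0.17 without the array labelled HPYD 3 and −0.61 without HPYD 1.

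Scn3b encodes a beta subunit that binds the pore without a covalent bond. Its signal was 10.79, 10.98 and 9.76 in HPYD arrays, 10.85, 9.46 and 10.83 in Model arrays and 10.95, 11.00 and 10.94 in Control arrays. The array labelled HPYD 3 and Model 2 stood more than 1 log2 unit below all others, and the remaining 7 arrays lay between 10.79 and 11.00. The difference was −0.58 (standard error 0.42, interval −1.55 to 0.38) for Model against Control, where the arrays did not overlap (exact two-sided permutation p = 0.1, adjusted p = 0.859 from limma). Without Model 2 it was −0.12. HPYD against Control was −0.46 (−1.42 to 0.51) and HPYD against Model was 0.13 (−0.84 to 1.10), and without the array labelled HPYD 3 the Scn3b difference of HPYD arrays was 0.50 from Model and −0.08 from Control arrays.

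The arrays with low Scn3b were low in most measured genes of cortical and hippocampal excitatory neurons and high in genes of the cerebellum. The exception was Neurod2, at 10.21 and 10.02 in the array labelled HPYD 3 and Model 2, against 9.72 to 10.27 in Control arrays. Camk2a, a kinase of excitatory synapses, was 12.92, 13.01 and 12.02 in HPYD arrays, 12.99, 12.08 and 12.96 in Model arrays and 12.98, 12.97 and 13.06 in Control arrays. The excitatory list (7 of 8 genes measured) averaged 9.35 to 10.42 in HPYD arrays, 9.33 to 10.56 in Model arrays and 10.30 to 10.67 in Control arrays, with its minima in the array labelled HPYD 3 and Model 2. The Purkinje list (5 of 6 measured, including Gabra6, which marks cerebellar granule cells) averaged 7.47 to 11.05 in HPYD arrays, 8.43 to 11.04 in Model arrays and 7.57 to 7.99 in Control arrays, with its maxima in the same 2 arrays. No gene of either list was at 0, a value that no probe set had. Low averages in the array labelled HPYD 3 and Model 2 were not particular to excitatory genes. The lists of 8 inhibitory interneuron genes (9.72 and 9.65) and 3 oligodendrocyte precursor genes (8.15 and 8.03) were also lowest there. The list of 10 neuronal genes was not, at 11.66 and 11.65. In such bulk tissue fewer cells of a type and less RNA per cell cannot be told apart, and the part of these genes in the Scn3b and Scn3a values was not tested.
The genes most like Scn3b over the 9 arrays were Mmd2 (r = 0.997), Camkv (0.99) and Arnt2 (0.99), and Camk2a reached 0.98. Without those 2 arrays r was 0.84, 0.60, 0.83 and 0.59 over 7 arrays. Scn3b and Scn3a had r = 0.85, and −0.17 without them, so their likeness rested on those 2 arrays. Scn3b and Scn2a had r = 0.81, and 0.53 without those 2 arrays.

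**Figure D2:**
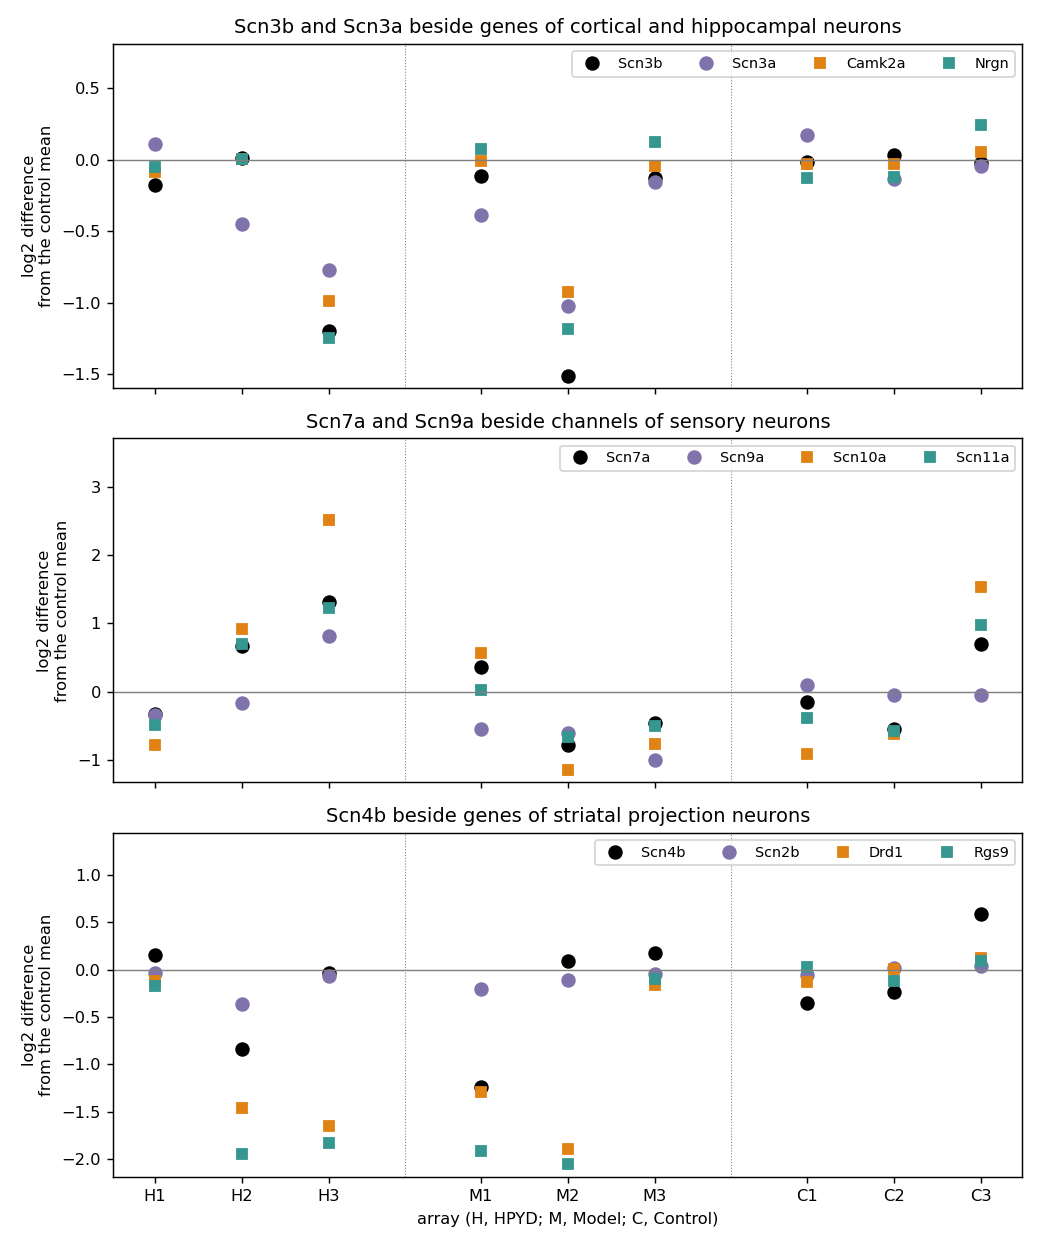
Log2 difference from the Control mean (vertical axes) in each array (horizontal axis, H for HPYD, M for Model, C for Control). Circles are sodium channel genes and squares are genes of excitatory neurons (top), sensory neuron channels (middle) and striatal neurons (bottom). Scn3b, Scn3a, Camk2a and Nrgn are all low in H3 and M2, Scn7a, Scn10a and Scn11a are high in H3, C3 and H2, and Scn4b is low in H2 and M1. Drd1 and Rgs9 are low in H2 and M1 and also in H3 and M2, where Scn4b is not low.

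Scn4b encodes the beta subunit linked to resurgent sodium current, is rich in striatal neurons and is bound to the pore by a disulfide bond. It gave 9.29, 8.30 and 9.11 in HPYD arrays, 7.90, 9.24 and 9.32 in Model arrays and 8.79, 8.90 and 9.73 in Control arrays. HPYD 2 and Model 1 were lowest, Control 3 was highest, and all groups overlapped. The differences were 0.08 (interval −0.93 to 1.10) for HPYD against Model, −0.24 (−1.25 to 0.78) for HPYD against Control and −0.32 (−1.34 to 0.69) for Model against Control.
Without HPYD 2 the Scn4b difference turned to 0.06 for HPYD against Control and was 0.38 for HPYD against Model. Without Model 1 it turned to −0.38 for HPYD against Model and to 0.14 for Model against Control. Genes of striatal projection neurons (5 of 7 measured, none at 0) averaged 9.06 to 10.53 in HPYD arrays, 9.13 to 10.53 in Model arrays and 10.45 to 10.80 in Control arrays. They were low in 4 arrays, HPYD 2, the array labelled HPYD 3, Model 1 and Model 2, of which the second and the fourth were not low in Scn4b, and r of Scn4b with the dopamine receptor gene Drd1 was 0.42. The part of these genes in the Scn4b values was not tested. Most like Scn4b over the 9 arrays were Ddb1 (r = 0.96), Cntnap1 (0.96), which encodes the axonal adhesion protein Caspr beside the node of Ranvier, and Kcnab1 (0.95), a potassium channel beta subunit. They were at 0.83, 0.94 and 0.91 without HPYD 2 and Model 1.

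Scn2b, the other disulfide-bound beta subunit and a substrate of the secretase BACE1, stayed within 0.40 log2 units. Its signal was 10.95, 10.62 and 10.92 in HPYD arrays, 10.78, 10.88 and 10.94 in Model arrays and 10.93, 11.00 and 11.02 in Control arrays. HPYD 2 was lowest, and the groups overlapped in each comparison. The differences were −0.04 (interval −0.26 to 0.18) for HPYD against Model, −0.16 (−0.37 to 0.06) for HPYD against Control and −0.12 (−0.33 to 0.10) for Model against Control.

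Scn2a, the gene of Nav1.2, varied least of the family on its main probe set, with a standard deviation of 0.09. That probe set read 12.38, 12.42 and 12.32 in HPYD arrays, 12.41, 12.26 and 12.44 in Model arrays and 12.58, 12.50 and 12.42 in Control arrays. Groups overlapped or touched in each comparison. The differences were 0.00 (interval −0.16 to 0.17) for HPYD against Model, −0.13 (−0.29 to 0.04) for HPYD against Control and −0.13 (−0.29 to 0.04) for Model against Control, and the smallest adjusted p was 0.859 from limma.

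All 14 probe sets of Scn2a had a lower mean in HPYD than in Control arrays, where 46.2% of all single-gene probe sets did, and all 14 had a lower mean in Model than in Control arrays, where 54.5% did. In 12 of 14 the mean was lower in HPYD than in Model arrays, where 43.3% of probe sets were. HPYD arrays lay wholly below Control arrays in 6 of 14 (4.62% of probe sets), Model arrays wholly below Control arrays in 3 of 14 (4.63%), and HPYD arrays wholly below Model arrays in 0 of 14 (1.01%). These probe sets read 1 gene in the same RNA and are not separate replicates.
Taken as a median over the 14 probe sets, the distance from the Control mean was −0.06, −0.23 and −0.36 in HPYD arrays, −0.06, −0.28 and −0.07 in Model arrays and −0.02, −0.04 and 0.04 in Control arrays. HPYD 2, the array labelled HPYD 3 and Model 2 had all 14 probe sets below the Control mean, while HPYD 1, Model 1 and Model 3 had 10, 11 and 11. Control 1, Control 2 and Control 3 had 8, 11 and 4, so the counts of HPYD 1, Model 1 and Model 3 did not stand apart from those of the Control arrays. The shift was thus largest in single arrays, and the probe sets differed in how far they moved, with ranges of 0.16 to 1.12 over the 9 arrays. The sources do not say which exons each probe set reads.

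**Figure D3:**
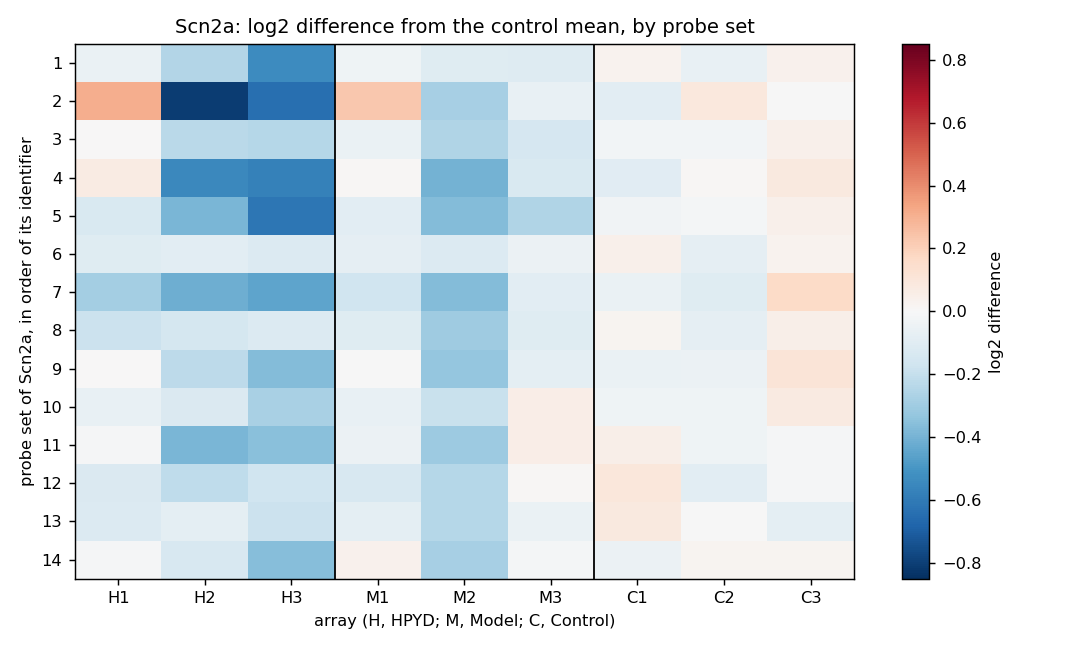
Log2 difference from the Control mean (colour, red above and blue below) for each of the 14 probe sets of Scn2a (vertical axis, numbered by identifier) in each array (horizontal axis, H for HPYD, M for Model, C for Control). Columns H2, H3 and M2 are below the Control mean in all 14 probe sets, with medians of −0.23, −0.36 and −0.28.

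Scn1a, the gene of Nav1.1, was the 1 member with a higher mean in Model than in Control arrays, and 1 of 3, with Scn7a and Scn9a, with a higher mean in HPYD than in Control arrays. It read 9.98, 9.45 and 9.87 in HPYD arrays, 9.49, 10.10 and 9.68 in Model arrays and 9.46, 9.58 and 9.64 in Control arrays. Model 2 and HPYD 1 were highest, and the groups overlapped. The differences were 0.01 (interval −0.40 to 0.43) for HPYD against Model, 0.21 (−0.20 to 0.62) for HPYD against Control and 0.20 (−0.22 to 0.61) for Model against Control. Single arrays carried much of these values. Without HPYD 1, Scn1a differed by 0.10 between HPYD and Control arrays, and without Model 2 it differed by 0.025 between Model and Control arrays. Its r with Scn3b over the 9 arrays was −0.77, and −0.70 over 7 without the array labelled HPYD 3 and Model 2. The inhibitory interneuron list (8 of 8 measured, none at 0) averaged 9.72 to 9.97 in HPYD arrays, 9.65 to 10.06 in Model arrays and 9.94 to 10.17 in Control arrays. Against Control arrays, 7 of its 8 genes had a lower mean in HPYD and 7 of 8 in Model arrays, with median differences of −0.32 and −0.39, the opposite direction to Scn1a. Its member Pvalb, which also marks Purkinje cells, differed from the rest of the list and was 10.09, 10.56 and 11.73 in HPYD arrays, 10.52, 12.06 and 10.28 in Model arrays and 9.39, 9.74 and 10.15 in Control arrays. Pearson's r of Scn1a with Pvalb was 0.66 over the 9 arrays, and 0.69 over 7 without HPYD 1 and Model 2, while their rank correlation over the 9 was 0.35. The part of these genes in the Scn1a values was not tested.

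Scn8a, the gene of Nav1.6, was nearly level. Its signal was 10.43, 10.38 and 10.43 in HPYD arrays, 10.40, 10.38 and 10.49 in Model arrays and 10.43, 10.36 and 10.69 in Control arrays. Control 3 was highest and no group stood apart. The differences were −0.01 (interval −0.21 to 0.19) for HPYD against Model, −0.08 (−0.28 to 0.12) for HPYD against Control and −0.07 (−0.27 to 0.13) for Model against Control.

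Counted over the family, 0 of the 9 members passed an adjusted p of 0.05 in limma for HPYD against Model (0.0% of all genes). Scn9a was the 1 member with an unadjusted p under 0.05 and with arrays that did not overlap, in both cases higher in HPYD arrays, beside 1.22% and 2.24% of all genes in that direction. The mean was higher in HPYD arrays for 7 of 9 members (57.5% of genes), and the median difference was 0.08, beside 0.02 over all genes. For HPYD against Control, 0 members passed the adjusted p (0.0% of genes), 0 had an unadjusted p under 0.05 (3.24%) and 0 had arrays that did not overlap (9.52%). The mean was lower in HPYD arrays for 6 of 9 (45.8%), with a median difference of −0.13, beside 0.01.

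For Model against Control, 0 of the 9 members passed an adjusted p of 0.05 in limma (0.0% of genes) and 1, Scn9a, had an unadjusted p under 0.05 with a lower mean in Model arrays (2.05%). Model arrays lay wholly below Control arrays for 3 of 9 members, Scn3a, Scn9a and Scn3b, beside 4.68% of all genes. Members with a lower mean in Model arrays numbered 8 of 9 (54.9%), all but Scn1a, and the median difference was −0.29, beside −0.01 over all genes. This median moved to −0.12 without Model 2 and the array labelled HPYD 3. It moved to −0.06 without Model 1, Model 2 and HPYD 2, the 3 arrays with high skeletal muscle and granulocyte genes. That fit left Model 3 as the only Model array, so its value sets a single array against the Control arrays. The comparisons of HPYD and of Model with Control share the Control arrays.

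**Figure D4:**
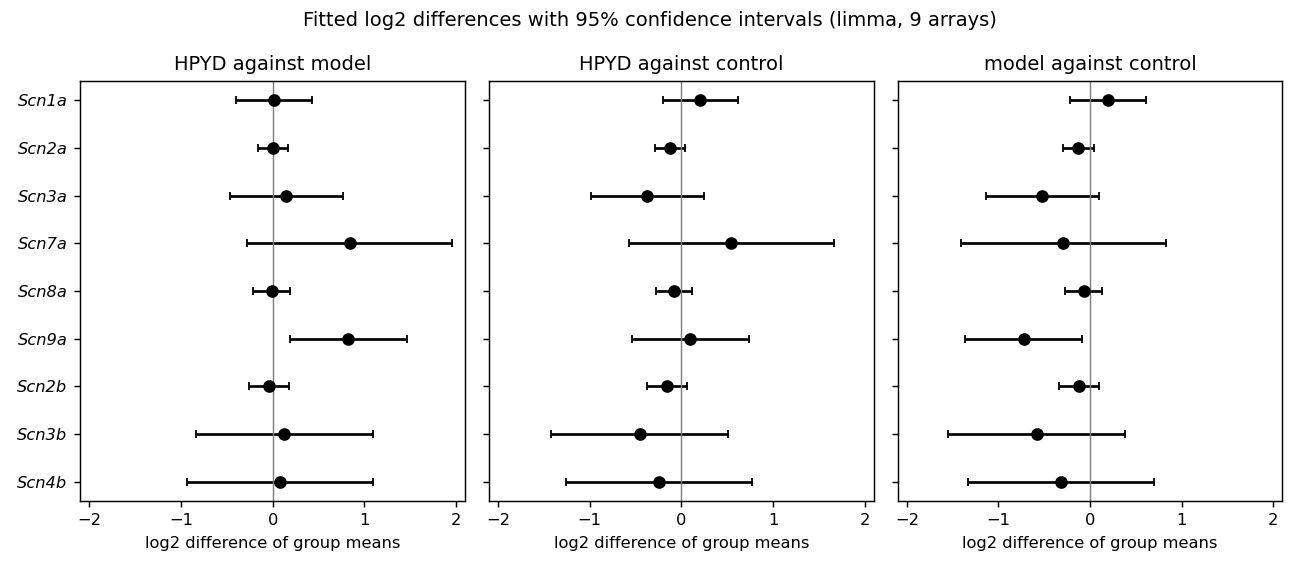
Fitted log2 difference of group means (horizontal axes) for each sodium channel gene (vertical axis) in the 3 comparisons, with 95% confidence intervals from limma over the 9 arrays. The interval of Scn9a lies above 0 for HPYD against Model (0.19 to 1.46) and below 0 for Model against Control (−1.36 to −0.09), before any adjustment for the number of genes, and the other intervals span 0.

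Among genes of proteins that anchor, modify or cut the channels, 15 of 17 were measured, among them Ank3 and Sptbn4 of the axon initial segment scaffold, the intracellular fibroblast growth factors Fgf11 to Fgf14, the ubiquitin ligase gene Nedd4l and the secretase genes Bace1 and Psen2. In limma 0 of 15 passed an adjusted p of 0.05 in any comparison, as for all genes, and 0 had an unadjusted p under 0.05, beside 1.97% of all genes for HPYD against Model, 3.24% for HPYD against Control and 4.92% for Model against Control. Their median differences were −0.01 for HPYD against Model, −0.03 for HPYD against Control and −0.03 for Model against Control. Nedd4l was 10.94, 10.89 and 10.45 in HPYD arrays, 10.94, 10.30 and 11.02 in Model arrays and 11.01, 10.95 and 11.19 in Control arrays, with its low values in the array labelled HPYD 3 and Model 2, as for Scn3b. Bace1 was 10.20, 10.47 and 10.32 in HPYD arrays, 10.39, 10.32 and 10.44 in Model arrays and 10.34, 10.23 and 10.53 in Control arrays, where all groups overlapped.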

How the data were processed

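Brain RNA of 9 samples was hybridised to GeneChip Mouse Gene 1.0 ST arrays, 3 per group, and groups were taken from the sample labels. The authors deposited log2 values for 35556 probe sets per array (2.37 to 14.01, array medians 6.69 to 6.82). MAS5 is the tool in the submitters' processing notes, with no version, and the sources used here give neither background correction nor normalization. Because normalization scales each array, values are relative to the other genes of that array. No scan date or slide was given, so batches could not be examined. Columns left unused numbered 0.

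The values were not changed. Of the probe sets, 21789 carried 1 gene symbol, 1621 carried several, and 12146 were unnamed here. Entrez identifiers of 21698 probe sets matched the RefSeq table of GRCm38.p6, and 0 symbols changed. The probe set with the highest mean stood for each of 999 genes with several, and 3 probe sets naming a member among several genes were left out. The 3 groups were fitted together with limma 3.58.1 in R 4.3.3 (6 residual and 2.13 prior degrees of freedom), with Benjamini-Hochberg adjustment over 19938 genes and a threshold of 0.05. Single genes were also compared by exact two-sided permutation tests, whose smallest p for 3 arrays against 3 is 0.1. The fit was tested on simulated data. Likeness was ranked by Pearson's r over 9 arrays for the 3 members with the largest standard deviation. Genes outside the family were named as checks of the labels, by smallest p in their list, by likeness, or, for the sensory ganglion genes, Camk2a, Nrgn and Bace1, after their values were seen.

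The members and gene lists were chosen with earlier results of these data known. Alternatives were other normalizations, filters, variance models, probe set rules, covariates and arrays left out. The fits without Model 2 and the array labelled HPYD 3, with excitatory neuron level as a covariate and with each probe set counted once were chosen after seeing the data. The number of arrays limits the precision.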

Additional observations from a re-analysis of the deposited data

How the results depend on the processing

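The values rest on log2 signals whose normalization is unknown, on 3 arrays a group that may not be separate mice, and on groups in which sex, genotype and tissue makeup differ together. No member passed an adjusted p of 0.05 in any of the 23 alternatives, in which the counts of members called stayed at 0 except when an unadjusted p of 0.05 was used, which gave 1 for HPYD against Model, 0 for HPYD against Control and 1 for Model against Control. Of 621 member differences recomputed, 45 changed sign. Many of the 621 repeat the main difference by construction. Their settings altered only the test, variance prior, block or genes kept, or left out arrays of the group not compared. The share of sign changes therefore understates how often signs turned where they could. Scn9a kept its direction in all alternatives for HPYD against Model (0.47 to 1.24) and for Model against Control (−1.01 to −0.58). The one-way test of the study's methods, followed by Student-Newman-Keuls comparisons, also called 0 members. Here its p was adjusted over all genes, a step that the study's methods do not state. The causes of the changes below were not tested.

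The median over the members for HPYD against Model was 0.015 with array weights, −0.063 with skeletal muscle level as a covariate, −0.060 without Model 1, Model 2 and HPYD 2, and −0.022 with every probe set counted once. For HPYD against Control it was −0.051 without those 3 arrays. For Model against Control it was −0.13 with array weights, −0.052 with the muscle covariate, −0.056 without the 3 arrays, −0.12 without Model 2 and the array labelled HPYD 3, and −0.14 with every probe set counted once. The fits without Model 1, Model 2 and HPYD 2 left Model 3 as the only Model array. Leaving out 1 array at a time gave medians of −0.031 to 0.33 for HPYD against Model, −0.15 to 0.019 for HPYD against Control and −0.44 to −0.10 for Model against Control.

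Single members changed sign as follows for HPYD against Model. Scn8a was 0.0028 with quantile normalization. Array weights gave −0.020 for Scn2a and −0.0049 for Scn3b, and the mean of probe sets gave −0.10 for Scn2a. The muscle covariate gave −0.060 for Scn2a, −0.21 for Scn3a, −0.27 for Scn3b and −0.18 for Scn4b. Without Model 1, Model 2 and HPYD 2, with Model 3 as the only Model array, they were −0.093, −0.18, −0.56 and −0.11 in that order of genes. Scn2a was −0.028 without Model 2 and the array labelled HPYD 3, and Scn1a was −0.028 with excitatory neuron level as a covariate. Without 1 array, Scn1a ranged over −0.12 to 0.18, Scn2a −0.055 to 0.038, Scn3a −0.10 to 0.35, Scn8a −0.031 to 0.022, Scn2b −0.099 to 0.067, Scn3b −0.33 to 0.50 and Scn4b −0.38 to 0.38.

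For HPYD against Control, Scn9a was −0.062 with array weights, −0.26 without Model 2 and the array labelled HPYD 3 and −0.11 with the excitatory covariate, Scn4b was 0.062 without the 3 arrays and Scn3b was 0.00010 with the excitatory covariate. Without 1 array, Scn8a ranged over −0.15 to 0.019, Scn9a −0.26 to 0.32 and Scn4b −0.44 to 0.062. For Model against Control, Scn4b was 0.18 without the 3 arrays, with Model 3 as the only Model array. Without 1 array, Scn7a ranged over −0.62 to 0.053, Scn8a −0.14 to 0.029 and Scn4b −0.57 to 0.14.

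The labels give the groups the same replicate numbers, but arrays of 1 number did not deviate together (correlations of −0.32 to 0.18), so the numbers were not taken to pair arrays. With the replicate number as a block, 0 members were called in each comparison. Each group holds 1 array of each number, so the block cannot change a difference of group means. The medians of 0.08, −0.13 and −0.29 for HPYD against Model, HPYD against Control and Model against Control were therefore fixed in advance and say nothing about pairing.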
